A study of Mus musculus with 24 samples.

Results

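The cytosolic ribosome is built from ribosomal RNA and one copy each of many proteins, and the genes of these proteins were followed here in MC38 cells, a mouse colon carcinoma line. Members were the rows whose symbol is Rpl or Rps with a number, optionally followed by a, x or y, together with Rplp0, Rplp1, Rplp2 and Rpsa. Pseudogenes, kinases and genes with like in the name were left out. This rule gave 76 genes, 46 of the large and 30 of the small subunit. All 76 passed the filter on low values (log2 value 0 or more in 4 or more libraries), as did 13272 of the 15390 genes in the table. The rule used names and detection, not the response to any treatment.

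Ribosomal protein messages are among the most abundant in a growing cell, and their products are made in step because a subunit lacking one protein is usually not finished. Many of them begin with a cytosine followed by a run of pyrimidines, the terminal oligopyrimidine (TOP) tract, which lets the kinase complex mTORC1 and the RNA-binding protein Larp1 control their translation and stability together. Several members also act outside the ribosome, for example Rpl5 and Rpl11, which with 5S ribosomal RNA bind and inhibit Mdm2, the ligase that degrades p53. TNF is an inflammatory cytokine that signals through NF-kappaB and can kill tumour cells.

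The cells carried control guide RNA 1, control guide RNA 2, Ado guide RNA 1 or Ado guide RNA 2, which makes 4 guide populations. The product of Ado is an enzyme that oxidises cysteamine and N-terminal cysteines, and the labels give the genotype of the Ado guide populations as Ado KO. Each population was left untreated or was treated with TNF for 1 h or 6 h, with 2 libraries of each, which makes 6 groups of 4 libraries (control or Ado KO, each untreated, TNF 1 h and TNF 6 h) and 24 libraries in all. All groups were grown in the same medium, DMEM with serum and antibiotics. The labels give the untreated cells no time, so a change after 6 h of TNF and 6 h more in culture cannot be told apart. They do not say whether a population is 1 clone or a pool, nor whether its 2 libraries came from separate cultures, so the p-values speak of differences between these libraries only and their spread may be technical.

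Total RNA was sequenced with the QuantSeq 3′ kit, which counts 1 tag near the polyadenylated end of each message. The deposited values were read as log2 CPM (tag counts scaled to a common library total), a unit inferred from the values. Their low values correspond to an estimated 4070000 to 6350000 tags per library. The positions of the guides are not given and a tag at the message end need not report an edit, so the Ado tag checks nothing: its group means were 5.13 to 5.26 in control and 5.30 to 5.35 in Ado KO cells. Of 10 epithelial markers only Cdh1, Krt8 and Krt18 had a row, and their sums were between 0.29 and 3.37 CPM in every library, so the defining epithelial genes were near the bottom of the scale in cells labelled as colon carcinoma. Immune (6 of 9 with a row), fibroblast and pericyte (5 of 6), endothelial (2 of 5) and erythroid (2 of 4) markers summed to at most 31.67, 49.48, 6.06 and 13.13 CPM in any library. Their part in the results was not tested.

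Some libraries stood apart for these genes. The second library of control guide 1 at TNF 1 h gave the small-subunit members 4.56% of all values, against 4.97% to 5.10% in the other libraries of its group. That sum includes Rps14, the most abundant member, which read 12.58 log2 CPM there and 13.32 in the others. This gene alone therefore lowers the sum, by a step in rank described further on. The second library of Ado guide 2 at TNF 1 h gave all members 11.07%, against 11.45% to 11.64% in its group, with 1.85% in mitochondrially encoded messages against 1.29% to 1.35%. Results at 1 h are given with and without these libraries where that changes a call.

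The starts of the genes were read from RefSeq promoters (GRCm38.p6), of which 56 of the 76 members had one. A TOP start was scored as C at the annotated start followed by at least 4 pyrimidines on the sense strand. It was found in 13 of 56 members (23.2%) and in 3.01% of the 27025 symbols with a promoter. Allowing the C to lie within 2 bases of the annotated start gave 20 members (35.7%) against 10.6%. The letters CTTTCC or CTTTTC, sense strand only, stood between 40 bases before and 20 bases from the start in 17 members (30.4%), against 5.91% of all symbols. These counts share bases and members. The following windows of 60 bases, 40 before and 20 from the annotated start, belong to members that were lower after 6 h of TNF in control cells, as described further on. They are shown as examples of starts with and without these features, and capitals mark CTTTCC or CTTTTC.
Rpl28, chr7:4792925-4792984, plus strand: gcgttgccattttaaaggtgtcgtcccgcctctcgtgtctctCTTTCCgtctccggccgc
Rpl38, chr11:114668540-114668599, plus strand: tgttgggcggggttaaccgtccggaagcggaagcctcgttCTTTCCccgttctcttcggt
Rpl15, chr14:18270967-18271026, minus strand: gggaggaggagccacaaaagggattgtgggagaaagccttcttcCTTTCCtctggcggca
Rps10, chr17:27635225-27635284, minus strand: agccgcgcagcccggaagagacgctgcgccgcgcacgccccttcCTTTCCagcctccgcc
Rpl12, chr2:32961672-32961731, plus strand: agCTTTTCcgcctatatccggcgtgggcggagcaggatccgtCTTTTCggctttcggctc
Rpl14, chr9:120571477-120571536, plus strand: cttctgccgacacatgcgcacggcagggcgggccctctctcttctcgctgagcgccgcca
Rplp0, chr5:115559427-115559486, plus strand: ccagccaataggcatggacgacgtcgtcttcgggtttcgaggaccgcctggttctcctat
Rps3, chr7:99483690-99483749, minus strand: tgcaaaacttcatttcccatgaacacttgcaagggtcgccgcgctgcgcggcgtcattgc
Rpsa, chr9:120127726-120127785, plus strand: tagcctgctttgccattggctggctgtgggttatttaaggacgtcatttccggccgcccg

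Rpl28, Rpl38, Rpl15 and Rps10 have both a TOP start by the rule and the capitalised letters. Rpl12 has the letters at both marked places, and a TOP start only when the C may lie within 2 bases. Rpl14 has a TOP start but not those letters, and Rplp0, Rps3 and Rpsa have neither in this window. A match describes letters only, and the annotated start may differ from the start used in these cells.

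The members were expressed at very different tag levels, from 13.22 log2 CPM for Rps14 to 7.07 for Rpl29 as means of the 24 libraries. Rps14, deleted in a form of human anaemia, was followed by Rplp1 at 12.61 and Rplp2 at 12.42, the acidic proteins of the stalk that recruits translation factors. The lowest 3 were Rps12 at 7.67, Rpl17 at 7.37 and Rpl29 at 7.07. Tags come from message ends, so gene length does not enter, but copies in the genome do. Of the 76 members, 65 had a stretch of at least 100 bases with at least 95% identity to another annotated gene within the last 300 bases of a transcript. Rpl21 had 57 such copies, Rpl29 had 56, Rpl7a 48, Rps2 45 and Rpl17 36, so that many copies occurred in members of low level and in others, such as Rpl7a at 9.62 and Rps2 at 9.03 log2 CPM, whereas 11 members had none, among them Rpl12, Rpl14, Rpl27a, Rpl37a, Rpl4, Rps23 and Rps3. Levels of members with copies are therefore uncertain, and so are comparisons of level between members.

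**Figure D1:**
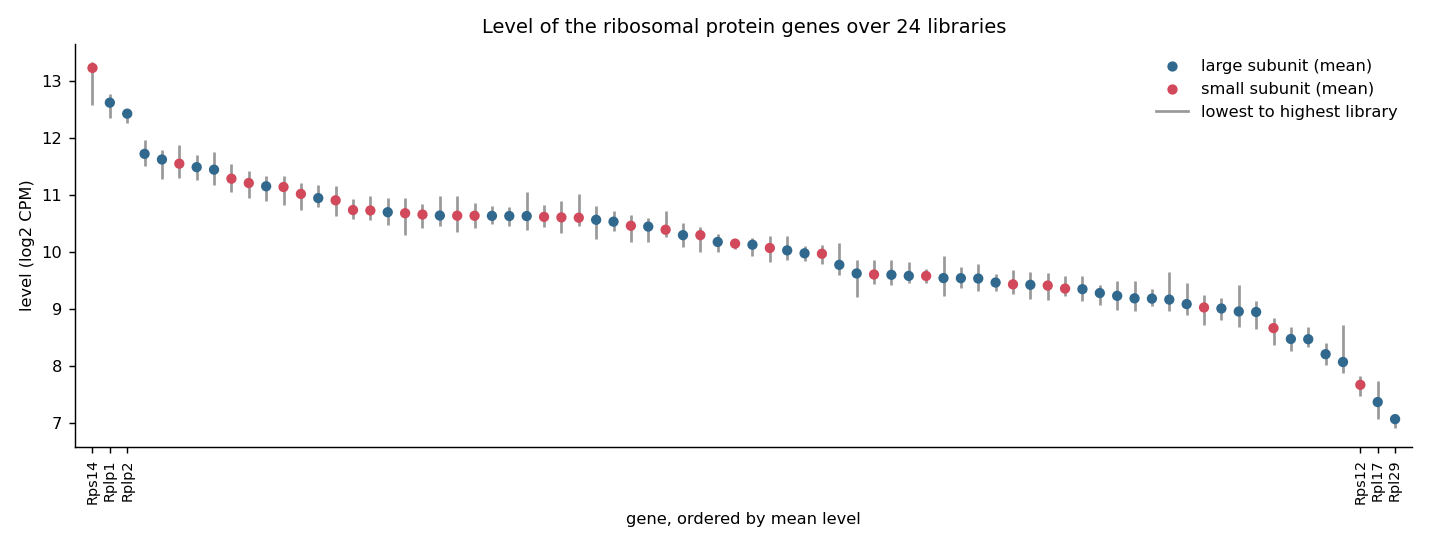
Mean level of each of the 76 ribosomal protein genes (vertical axis, log2 CPM) over 24 libraries, ordered from Rps14 at 13.22 to Rpl29 at 7.07. Points are means, coloured by subunit, grey bars run from the lowest to the highest library, and the 3 highest and 3 lowest genes are named.

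The genes also share a genomic feature that the rule did not use. A small nucleolar RNA, which guides chemical modification of ribosomal RNA, is annotated inside 29 of the 76 members (38.2%), against 217 of 10820 protein-coding genes that passed the filter (2.01%).

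In untreated cells the members took 11.31% to 11.53% of all values in the control libraries and 11.50% to 11.59% in the Ado KO libraries. After 1 h of TNF the share was 10.45% to 11.21% in control and 11.07% to 11.64% in Ado KO cells. After 6 h it was 9.85% to 10.52% in control and 10.83% to 10.98% in Ado KO cells. Within each genotype no library at 6 h reached the lowest untreated library, and at 6 h no control library reached the lowest Ado KO library. Relative to untreated cells the mean share at 6 h was decreased by 11.33% in control cells and decreased by 5.51% in Ado KO cells. These sums include Rps14, whose value at 6 h was 12.76 or 13.32 log2 CPM in control libraries and 13.32 in all Ado KO libraries. From mean log2 levels, in which each member counts equally, the changes were -8.9% in control and -4.83% in Ado KO cells. No test was made of a sum over members chosen with earlier results known.

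Other parts of the table took larger shares over the same hours. Genes annotated as small nucleolar, small nuclear, ribosomal or other small structural RNAs took 0.25% to 0.29% of all values in untreated and 2.04% to 3.08% in 6 h control libraries. The same genes took 0.27% to 0.37% in untreated and 1.34% to 1.58% in 6 h Ado KO libraries. Mitochondrially encoded messages took 1.40% to 1.75% and 2.09% to 2.32% in control, and 1.49% to 1.59% and 1.75% to 2.00% in Ado KO libraries. Of the values of protein-coding genes alone, the members took 17.35% to 17.85% in untreated and 16.11% to 16.69% in 6 h control libraries, and 17.83% to 17.95% and 17.10% to 17.47% in Ado KO libraries. The groups still did not overlap, and the mean share was decreased by 7.39% in control and decreased by 3.55% in Ado KO cells. How far the small RNAs set the deposited values of the members was not tested.

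**Figure D2:**
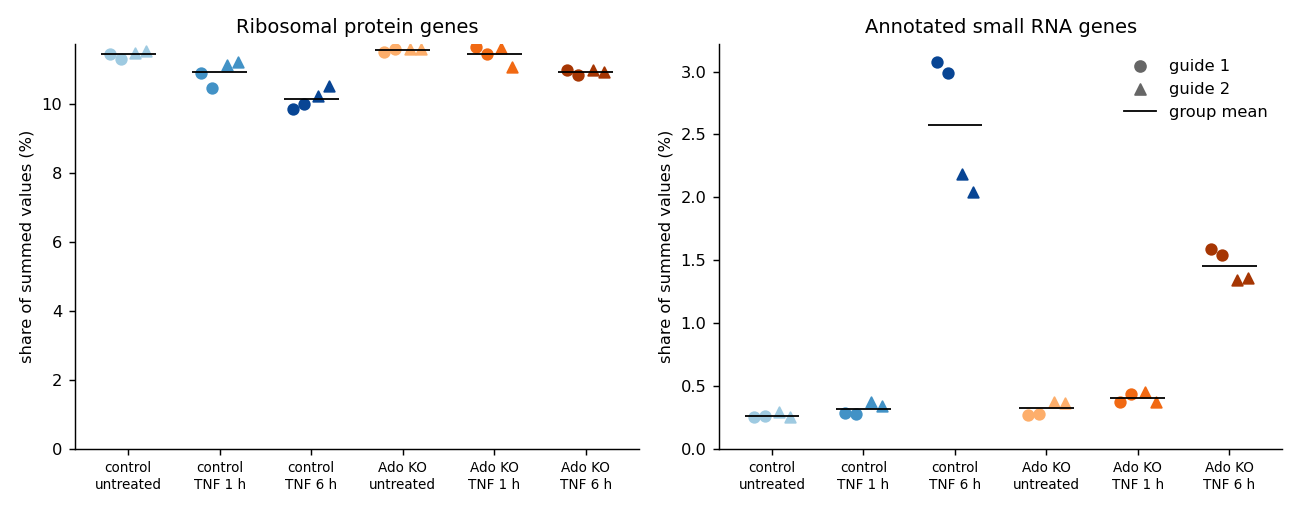
Share of the summed values (vertical axes, %) taken by the 76 ribosomal protein genes (left) and by annotated small RNA genes (right) in each library, by group. Circles are guide 1, triangles guide 2 and lines group means: the members' share is lowest at 9.85% to 10.52% in control cells at TNF 6 h, where the small RNA share is highest at 2.04% to 3.08%.

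After 6 h of TNF in control cells, 27 of the 76 members were lower and none was higher (limma, adjusted p under 0.05 over all genes kept). That is 35.5% of the members, beside a background of 10.3% of genes lower and 7.74% higher. At an unadjusted p under 0.05, 44 were lower and 0 higher, beside 2578 and 1557 of the 13272 genes kept. The median log2 difference of the members was -0.14, against -0.09 over all genes, and 63 of 76 estimates lay below 0 (82.9% of members, 60.6% of all genes). In both control populations taken alone, 56 members lay below 0 (73.7%, against 43.3% of all genes), with medians of -0.15 in guide 1 and -0.12 in guide 2. The called changes were small: Rpl15 fell by 9.62% and Rps14 fell by 25.6%, and the others lay between.

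Highly expressed genes are measured more precisely, so other abundant genes give a second background, chosen after the data were seen. Among 130 other protein-coding genes with means between 8.80 and 11.36 log2 CPM (the 10th to 90th percentile of the members), 37 were lower (28.5%), 12 were higher and the median was -0.09. The members' share of 35.5% lies closer to this figure than to 10.3%. None of the members rose, and the contrast with the 12 rises among the other genes was not tested.

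The member with the smallest adjusted p was Rpl8, which sits near the site where peptide bonds form. Its values were 11.23, 11.27, 11.27 and 11.29 log2 CPM in the untreated control libraries and 10.89, 10.89, 10.98 and 11.05 after 6 h. All libraries at 6 h were below all untreated ones. Rpl8 fell by 0.31 on the log2 scale (SE 0.054, adjusted p 8.9e-05, limma), and so fell by 19.4%. The Ado KO libraries read 11.10, 11.15, 11.25 and 11.27 untreated and 10.97, 11.09, 11.12 and 11.15 at 6 h, an overlap, with a difference of -0.11 (SE 0.054, adjusted p 0.286, limma).

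Rps3, which lines the channel where messenger RNA enters and also acts in NF-kappaB complexes and DNA repair, was 11.17, 11.19, 11.29 and 11.32 in untreated control libraries. At 6 h it was 10.82, 10.95, 10.97 and 10.98, again with no overlap. Rps3 fell by 0.31 (SE 0.059, adjusted p 2.6e-04, limma). It is one of the 11 members with no near-identical copy, so its tags are less open to misassignment. For Ado KO cells the difference was -0.15 (SE 0.059, adjusted p 0.152, limma), from 11.17, 11.19, 11.27 and 11.29 to 11.02, 11.04, 11.07 and 11.19.

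Rpl14, a large-subunit protein whose gene also lacks a copy, went from 9.54, 9.56, 9.70 and 9.85 to 9.24, 9.26, 9.29 and 9.33 in control cells. The groups did not overlap and the gene fell by 0.38 (SE 0.075, adjusted p 4.5e-04, limma), that is, fell by 23.3%. Its Ado KO estimate was the most negative of all members, -0.24 (SE 0.075, adjusted p 0.0534, limma), with 9.50, 9.64, 9.69 and 9.69 untreated and 9.23, 9.43, 9.44 and 9.47 at 6 h. These did not overlap either, but the call was missed.

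The largest estimate belonged to Rps14, and it shows how the authors' normalisation limits the most abundant genes. The top values are the same in every library, so that a gene's value there is set by its place: 13.32 at place 2 from the top, 12.76 at place 3 and 12.58 at place 4. Rps14 held place 2 in all 4 untreated control libraries and, at 6 h, place 2 in 1 library and place 3 in 3, which gives 13.32 once and 12.76 in the others. The resulting difference of -0.43 (SE 0.109, adjusted p 0.00638, limma) is 1 step in rank, and with protein-coding genes alone normalised again it was 0. Rps14 held place 2 in all 12 Ado KO libraries.

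Of the stalk proteins Rplp0, Rplp1, Rplp2 and Rpl12, which form and anchor the arm that binds elongation factors, 2 of 4 fell at 6 h in control cells and none in Ado KO cells. Rplp0, the base of the stalk, went from 11.62, 11.64, 11.69 and 11.74 to 11.27, 11.37, 11.50 and 11.53 and fell by 0.26 (SE 0.059, adjusted p 0.00263, limma). No library overlapped. The call of Rplp0 ended without guide 1 and with protein-coding genes alone normalised again, where its difference was -0.14 (adjusted p 0.104, limma). Rpl12, which binds beside it, went from 9.45, 9.60, 9.61 and 9.62 to 9.20, 9.31, 9.40 and 9.45 and fell by 0.23 (SE 0.069, adjusted p 0.0178, limma). Its call ended without the first or second untreated library of guide 1 or the second 6 h library of guide 1, and its difference was -0.36 in guide 1 and -0.10 in guide 2. With protein-coding genes normalised again Rpl12 had a difference of -0.19 (adjusted p 0.0634, limma) and was not called. Rplp1 had a difference of -0.20 (adjusted p 0.0564, limma) and Rplp2 of -0.08 (adjusted p 0.291, limma), and both lie among the top 10 places, where values move in steps.

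Of the pair that carries 5S ribosomal RNA, Rpl11 fell and Rpl5 did not pass the test. Rpl11 was 10.47, 10.47, 10.49 and 10.54 in untreated and 10.23, 10.23, 10.27 and 10.29 in 6 h control libraries, with tight groups that did not overlap (fall of 0.24, SE 0.06, adjusted p 0.00588, limma). With protein-coding genes normalised again its difference was -0.17 (adjusted p 0.0526, limma) and the call ended, as it did without guide 2. Rpl5 had a difference of -0.04 (SE 0.066, adjusted p 0.733, limma). The difference between the 2 genes was not tested.

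At the message entry and decoding side of the small subunit, 2 of 4 measured members fell, Rps3 and Rps9, the latter a protein that affects decoding accuracy. Rps9 went from 11.44, 11.50, 11.64 and 11.87 to 11.29, 11.32, 11.32 and 11.35, a fall of 0.29 (SE 0.077, adjusted p 0.00752, limma) that was no longer called without the second untreated library of guide 2, which held the 11.87. Its call ended also without guide 2 and with protein-coding genes normalised again (-0.19, adjusted p 0.0741, limma). In a list of 11 members drawn up for the peptide exit tunnel, 1 fell (9.09%, near the background of 10.3%). This was Rpl39, by 0.25 (SE 0.06, adjusted p 0.0034, limma), a call that ended without guide 2. The list also holds Rpl24 and Rpl29, which are not established tunnel proteins. The median of the 11 listed members was -0.08, close to that of all genes.

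Of 9 members listed for roles in signalling or outside the ribosome, 4 fell: Rps14, Rpsa, Rpl13a and Rpl38. That is 44.4%, beside 10.3% of all genes and 35.5% of all members. The change of Rps14 is the step in rank given above. The list leaves out Rpl5, Rpl11, Rps3 and Rpl23, which are also named here for such roles. Rpsa, also described as a laminin receptor, went from 10.89, 10.91, 10.98 and 11.04 to 10.74, 10.75, 10.75 and 10.81, a fall of 0.19 (SE 0.053, adjusted p 0.0131, limma). That call ended without guide 1, without the first untreated library of guide 1, and with protein-coding genes normalised again (-0.11, adjusted p 0.142, limma). Rpl38, needed for the translation of certain Hox messages in the mouse embryo, fell by 0.19 (adjusted p 0.017, limma), with differences of -0.31 in guide 1 and -0.07 in guide 2. Its call ended without guide 1, and in 3 of the 8 fits that left out 1 library, those without either untreated library of guide 1 or the first 6 h library of guide 1. Rpl13a, which silences inflammatory messages in the GAIT complex, fell by 0.20 (adjusted p 0.046, limma), and 7 of the 8 fits that left out 1 library ended that call. It ended also in 5 of 12 other settings, among them protein-coding genes normalised again (-0.14, adjusted p 0.157, limma). Rps6, Rps27a, Rps4x, Rpl10 and Rps19 did not pass the test.

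Other called members with large falls were Rpl32 by 0.34, Rps7 by 0.31, Rps10 by 0.28 and Rpl27a by 0.26 on the log2 scale, with limma adjusted p between 8.5e-04 and 0.0031. Rpl32 read 10.62, 10.66, 10.77 and 10.80 untreated and 10.27, 10.28, 10.45 and 10.50 at 6 h. Its guide 1 libraries changed more, with a difference of -0.51, than its guide 2 libraries, with -0.17. The calls of Rpl32 and Rps7 ended without guide 1. The call of Rpl27a ended without guide 1 and with protein-coding genes alone normalised again, where its difference was -0.08 (adjusted p 0.38, limma). For 3 of the 27 called members, Rps14, Rps28 and Rpl37, the libraries of the 2 groups overlapped.

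The falls were spread over the set. They numbered 17 of 46 large-subunit members (37.0%) and 10 of 30 small-subunit members (33.3%). They included 11 of 29 members with a small nucleolar RNA inside and 16 of 47 without. They included 22 of 65 members with a near-identical copy (33.8%) and 5 of 11 without (45.5%). Of the 13 members with a TOP start 6 fell (46.2%) and of the other 43 with a promoter 16 fell (37.2%), with medians of -0.15 and -0.15. With the C allowed within 2 bases of the start, 10 of 20 and 12 of 36 (33.3%) fell, with medians of -0.17 and -0.14. By the letters CTTTCC or CTTTTC, 9 of 17 (52.9%) and 13 of 39 (33.3%) fell, with medians of -0.16 and -0.14. The counts in each pair of subsets were not tested against each other.

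In Ado KO cells at 6 h, 1 member was lower (1.32%) and none higher, beside a background of 2.02% of genes lower and 4.42% higher. Of the 130 other protein-coding genes in the members' level range, 7 were lower (5.38%) and 5 higher. At an unadjusted p under 0.05, 18 were lower and 0 higher, beside 1277 and 1091 of the 13272 genes kept. Estimates lay below 0 for 64 of 76 members (84.2%, against 58.9% of all genes), with a median of -0.07 against -0.05 over all genes. The called member was Rps28, a small protein near the message exit, at 10.89, 10.89, 10.91 and 10.95 untreated and 10.64, 10.68, 10.70 and 10.71 at 6 h. It fell by 0.23 (SE 0.071, adjusted p 0.0482, limma), with no overlap, but the call ended in each of the 8 fits that left out 1 library. In control cells Rps28 fell by 0.22 (adjusted p 0.0271, limma), with overlapping libraries. That call ended without either untreated library of guide 2 or either 6 h library of guide 1, without guide 2, with no variance trend, and with protein-coding genes normalised again (-0.17, adjusted p 0.105, limma).

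The 6 h changes in the 2 genotypes, which share no library, resembled each other across members. Pearson's r was 0.602 and Spearman's rho 0.623 over 76 genes, given as a description, since all values of a genotype come from the same libraries and genes are not independent. Of the members, 57 lay below 0 in both genotypes, and 57 had the lower estimate in control cells. For r, rho and the count below 0 in both genotypes, no figure over all genes is given. Whether the likeness is particular to the members was therefore not tested. The 1 h changes showed no such likeness, with r of -0.038, rho of -0.02 and 32 members below 0 in both genotypes. The test of the difference itself, the interaction of genotype and TNF at 6 h, called no member in limma (background 0% of genes higher and 0.347% lower). At an unadjusted p under 0.05 it gave 6 members higher and 0 lower, beside 443 and 450 of the 13272 genes kept. The median interaction was 0.07, against 0.03 over all genes. Interaction estimates lay below 0, with the lower change in Ado KO cells, for 19 of 76 members and for 45.1% of all genes. A stronger fall in control than in Ado KO cells is therefore not shown for any single member. For Rpl8 the interaction was 0.20 (SE 0.077, adjusted p 0.594, limma).

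**Figure D3:**
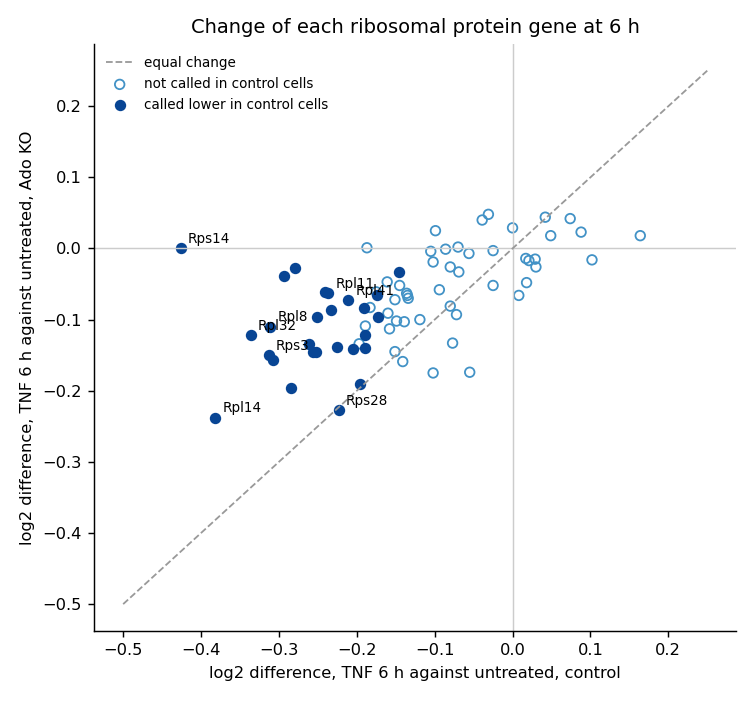
Log2 difference at 6 h of TNF against untreated for each of the 76 members in control cells (horizontal) and Ado KO cells (vertical). Filled points are the 27 members called lower in control cells. In 57 of 76 members the control estimate is the lower one, so most points lie above the dashed line of equal change. Over all genes, not drawn here, 45.1% have the lower estimate in Ado KO cells.

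After 1 h of TNF in control cells 2 members were lower and none higher (2.63% of members, background 0.0603% lower and 0.332% higher). At an unadjusted p under 0.05, 18 were lower and 2 higher, beside 844 and 1032 of the 13272 genes kept. The median was -0.07 against -0.03 over all genes. Of the 130 other genes in the members' level range, 0 were lower and 1 was higher. Rpl12 was 9.18, 9.26, 9.28 and 9.36 at 1 h, all under its untreated libraries, a fall of 0.30 (SE 0.069, adjusted p 0.0354, limma). Rpsa was 10.62, 10.71, 10.77 and 10.78, also without overlap, a fall of 0.23 (SE 0.053, adjusted p 0.0351, limma). Both calls ended without the first or second untreated library of guide 1, the second untreated library of guide 2, or either 1 h library of guide 1. The call of Rpl12 ended also without the first 1 h library of guide 2. Both calls ended without guide 1 and with no variance trend, and that of Rpsa with no filter. The differences in guide 1 and guide 2 were -0.39 and -0.21 for Rpl12, and -0.35 and -0.12 for Rpsa.

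In Ado KO cells no member was called after 1 h in limma, with a background of 0.241% of genes higher and 0.0151% lower. At an unadjusted p under 0.05, 1 was higher and 4 were lower, beside 500 and 463 of the 13272 genes kept. The medians of the members and of all genes were -0.01 and -0.002. Of the 130 other genes in the members' level range, 0 were lower and 1 was higher. The genotype by TNF interaction at 1 h called no member either (background 0% and 0%). With no adjustment, 10 members were higher and 2 lower at p under 0.05, beside 628 and 676 of the 13272 genes kept. Without the second 1 h library of Ado guide 2, 1 member was called. The largest estimate was for Rpsa at 0.31 (SE 0.076, adjusted p 0.432, limma).

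**Figure D4:**
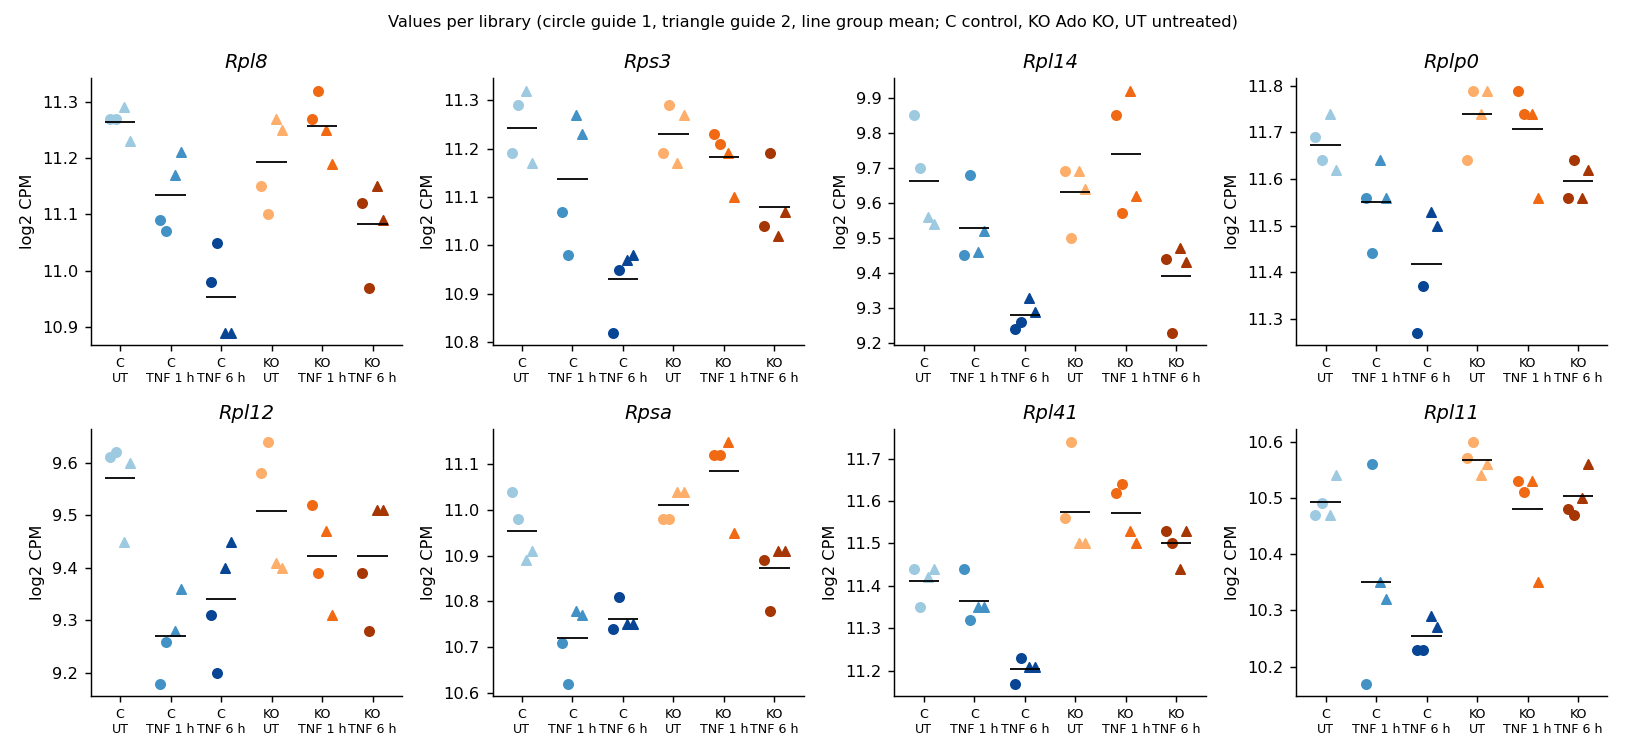
Values of 8 members in all 24 libraries (vertical axes, log2 CPM, each panel with its own scale that does not start at 0). Circles are guide 1, triangles guide 2 and lines group means: Rpl8 and Rpl11 at 6 h in control cells lie below all untreated control libraries, and Rpsa at 1 h is lower in all control than in all Ado KO libraries.

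Few members were called between Ado KO and control cells. In untreated cells 1 member was higher and none lower (background 0.0678% higher, 0.181% lower), with a median of -0.01 against 0.005 over all genes. With no adjustment, 5 were higher and 6 lower at p under 0.05, beside 538 and 628 of the 13272 genes kept. Of the 130 other genes in the members' level range, 1 was higher and 0 were lower after adjustment. The called member was Rpl37a, a zinc-binding protein of the large subunit. Its values were 10.52, 10.55, 10.61 and 10.77 in control and 10.82, 10.91, 10.92 and 10.95 in Ado KO cells. It was higher by 0.29 (SE 0.063, adjusted p 0.0368, limma), without overlap. The call held without the first library of either guide 2 population and ended in the other 6 fits that left out 1 library. It ended also without guide 1, with no filter and with no variance trend. The difference was 0.40 between the guide 1 populations and 0.17 between the guide 2 populations. At 6 h the difference of Rpl37a over both guides was 0.17 (adjusted p 0.259, limma).

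At 1 h of TNF, 1 member was higher and 2 were lower in Ado KO than in control cells (background 0.527% higher, 0.535% lower). With no adjustment, 25 were higher and 7 lower at p under 0.05, beside 1124 and 970 of the 13272 genes kept. The median was 0.06 against 0.01 over all genes. Of the 130 other genes in the members' level range, 0 were higher and 7 lower (5.38%) after adjustment, against 2.63% of members lower. Rpsa was 10.62, 10.71, 10.77 and 10.78 in control and 10.95, 11.12, 11.12 and 11.15 in Ado KO libraries, higher by 0.37 (SE 0.056, adjusted p 9.8e-04, limma). This call held in each fit that left out 1 library. Rows of Rpsa pseudogenes, whose tags can be exchanged with those of Rpsa, were also higher: Rpsa-ps9 by 0.40 (adjusted p 0.00271, limma), Rpsa-ps10 by 0.31 and Rpsa-ps12 by 0.30.

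The lower members at 1 h were Rpl30 and Rpl23. Rpl30, an RNA-binding protein of the large subunit, was 9.08, 9.09, 9.11 and 9.42 in control and 8.69, 8.72, 8.73 and 8.93 in Ado KO cells, a difference of -0.41 (SE 0.092, adjusted p 0.0233, limma). Rpl23, another member that binds Mdm2, was 10.71, 10.72, 10.86 and 11.05 in control and 10.39, 10.44, 10.50 and 10.72 in Ado KO cells, which overlap (difference -0.32, SE 0.084, adjusted p 0.0497, limma). Within control cells their 1 h estimates were the opposite of most members, 0.21 for Rpl30 (adjusted p 0.267, limma) and 0.25 for Rpl23 (adjusted p 0.151, limma). Both calls ended without the first control library of guide 1, either Ado guide 1 library or the first Ado guide 2 library, and that of Rpl23 also without the second control library of guide 1. Leaving out guide 1 of both genotypes, or the variance trend, ended both calls. That of Rpl23 ended also with no filter and with protein-coding genes not normalised again. The differences between the guide 1 and the guide 2 populations were -0.53 and -0.28 for Rpl30, and -0.49 and -0.16 for Rpl23. Without the second 1 h library of Ado guide 2, 8 members were higher and 3 lower in Ado KO cells.

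At 6 h of TNF, 2 members were higher and none lower in Ado KO cells (background 0.422% higher, 0.595% lower). With no adjustment, 19 were higher and 3 lower at p under 0.05, beside 888 and 624 of the 13272 genes kept. The median was 0.07 against 0.02 over all genes. Of the 130 other genes in the members' level range, 2 were higher and 2 lower after adjustment. Rpl41, the shortest ribosomal protein, at the interface of the subunits, was 11.17, 11.21, 11.21 and 11.23 in control and 11.44, 11.50, 11.53 and 11.53 in Ado KO cells, higher by 0.30 (SE 0.055, adjusted p 0.00287, limma). The call held without each single library and ended without guide 2. In untreated cells Rpl41 already lay higher in all Ado KO libraries, by 0.16 (adjusted p 0.297, limma). Rpl11 was 10.23, 10.23, 10.27 and 10.29 in control and 10.47, 10.48, 10.50 and 10.56 in Ado KO cells, higher by 0.25 (SE 0.063, adjusted p 0.045, limma), a call that ended in each of the 8 fits that left out 1 library.

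The populations of 1 genotype also differed. Between the control guides, with the 3 treatments averaged, 5 members were higher and 5 lower in guide 2 (13.2% of members, background 4.61% of genes in either direction). Examples are Rplp1, higher by 0.22, Rps28, higher by 0.23, and Rpl4, a protein of the exit tunnel wall, lower by 0.23 on the log2 scale. Between the Ado guides no member was called in limma (background 0.158%). These differences sit beside called differences between genotypes of 0.25 to 0.41 in size for other members, and whether a genotype difference comes from Ado or from single populations was not tested beyond the 2 guides.

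Other genes of the pathway were taken from lists. Of 48 genes of RNA polymerase I and ribosome assembly, 11 rose (22.9%) and 2 fell (4.17%) in control cells at 6 h, beside the background of 7.74% higher and 10.3% lower, with a median of 0.12. The genes that rose included Rrs1 and Wdr43, assembly factors of the large and the small subunit, by 0.61 and 0.63, Nmd3, which exports the large subunit, by 0.85, and Ddx21, a nucleolar helicase, by 0.47. Mrto4 and Rrn3, the latter the initiation factor of polymerase I, fell by 0.26 and 0.24. The Ado KO cells had 3 rises (6.25%, near the background of 4.42%) and no fall: Rrs1 by 0.44, Wdr43 by 0.33 and Grwd1 by 0.26. With protein-coding genes normalised again the counts were 11 and 0 in control and 3 and 0 in Ado KO cells.

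Of 19 genes of the mTORC1 pathway, none rose and 3 fell in control cells at 6 h (15.8%, beside 10.3% of all genes lower). With protein-coding genes normalised again 1 rose and 3 fell. Ddit4, an mTORC1 inhibitor induced by stress, fell by 1.79 (SE 0.188, adjusted p 1.1e-08, limma) in control and by 1.95 (SE 0.188, adjusted p 2.5e-09, limma) in Ado KO cells. Eif4ebp1, the translation repressor that mTORC1 inactivates, fell by 0.32 and 0.34, and Mlst8, a subunit of the complex, by 0.39 in control cells. Larp1 and Mtor did not pass the test.

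Of 21 other messages known for TOP tracts, 3 rose (14.3%) and 4 fell (19.0%) in control cells at 6 h, beside the background of 7.74% higher and 10.3% lower, with a median of -0.02. With protein-coding genes normalised again 4 rose and 2 fell. The translation factors Eif3h, Eef1g and Eif3k fell by 0.31, 0.26 and 0.22, whereas the helicase Eif4a2 rose by 0.85. The called genes of this list moved both ways. Of its genes only Eef1g was called in Ado KO cells, with a fall of 0.18 (adjusted p 0.0361, limma), and that call ended with protein-coding genes normalised again. At 6 h the level of Eif4a2 was lower in Ado KO than in control cells, by a log2 difference of -0.75 (adjusted p 0.00198, limma).

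Of 77 mitochondrial ribosomal proteins, which are encoded in the nucleus, 14 fell and none rose in control cells at 6 h, with a median of -0.17. Mrps6 fell most clearly, by 0.47 (SE 0.062, adjusted p 1.0e-06, limma), and by 0.39 (adjusted p 4.2e-05, limma) in Ado KO cells, where it was the only one called. Mrps35, Mrpl58 and Mrpl12 fell by 0.32, 0.31 and 0.20 in control cells. The share called, 18.2%, lies between the background of 10.3% and the members' 35.5%. The medians in control cells at 6 h ranked the other way, -0.175 for the mitochondrial proteins and -0.145 for the members. With protein-coding genes normalised again 8 mitochondrial proteins fell (10.4%) and none rose, against 11 members (14.5%). The medians were then -0.142 and -0.092. Differences between these lists were not tested. Of 9 measured ribosomal proteins with other names, Rack1, a scaffold on the small subunit, fell by 0.25 and Rps27rt by 0.22, and Rpl22l1, the paralogue of Rpl22, rose by 0.45. Of 190 ribosomal protein pseudogene rows, 26 fell (13.7%, near the background of 10.3%) and 1 rose (0.526%, background 7.74%), with a median of -0.12. The tags of these rows may come from the members themselves.

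**Figure D5:**
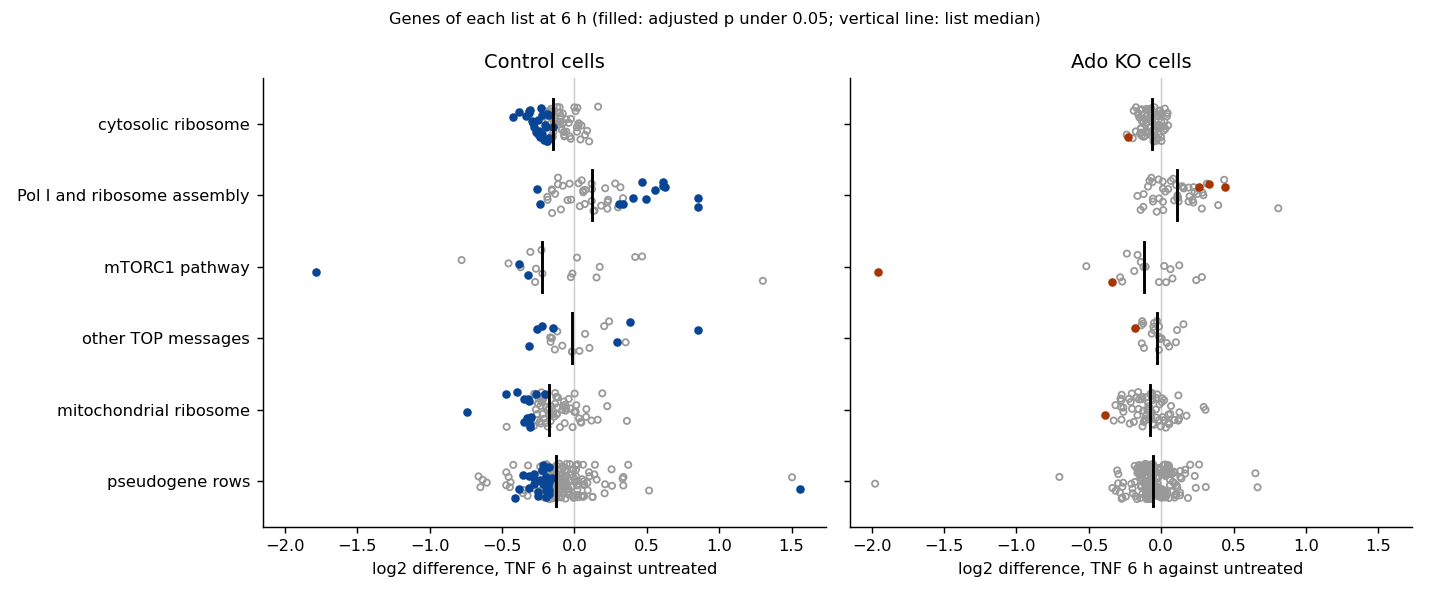
Log2 difference at 6 h of TNF against untreated (horizontal axes) for the genes of each list in control cells (left) and Ado KO cells (right). Filled points passed the test and vertical lines are medians: in control cells called members of the cytosolic ribosome all lie below 0 (27 of 76), while 11 of 48 assembly genes lie above 0.

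The count of falls at 6 h in control cells depended on how the table is scaled. With protein-coding genes other than histones alone, normalised again, 11 members fell (14.5%, with 6.80% of all genes lower) and the median was -0.09 against -0.05 over all genes. These 11 were all among the 27 and included Rpl8, Rpl14, Rpl32, Rpl38, Rpl39, Rpl41, Rps3, Rps7 and Rps10. Rpl8 then fell by 0.25 (adjusted p 9.4e-04, limma) and Rps3 by 0.25 (adjusted p 0.0033, limma). The call ended for the other 16. With the same genes and no second normalisation 26 fell.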

How the data were processed

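The authors deposited 1 table of normalised values per gene for 24 QuantSeq libraries. That these are log2 CPM was inferred, since the unlogged values of a library summed to between 998899.6 and 999014.4. Per the submitters' processing notes the tools were HISAT2, Subread, featureCounts, limma, FastQC and cutadapt 1.7 and the builds GRCm38 and mm10; the order of steps is not given. That the log2 values were quantile normalised was inferred from the deposited values, since the highest values are identical in all libraries. How multi-mapping reads and strand were treated is not given in the sources used here. Library depth was estimated from the spacing of tied low values. There were 0 missing values, 0 identical pairs of libraries and 0 unmapped columns. For control guide 2 at TNF 1 h the titles and column names give opposite replicate numbers; columns were joined through the descriptions.

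Genes with at least 0 in at least 4 libraries were fitted with limma 3.58.1 (R 4.3.3, statmod 1.5.0) on 6 group means, with the 4 guide populations as a random block (correlation 0.0485), a variance trend and Benjamini-Hochberg adjustment over 13272 genes, two-sided, threshold 0.05. The fit was run on simulated data with independent noise in each library, without shared guide populations or steps in rank. That run cannot check how the fit handles either, and its outcome is not given here. Symbols were matched to GENCODE M21, where 15207 of 15390 matched 1 gene. Copies were sought with blastn 2.17.0 and promoters were taken from RefSeq. Members and lists were chosen with earlier results of these data known, so no p is given for a list.

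Named members are the 4 spelled out in the rule, in each comparison the called ones with the largest changes or the smallest adjusted p, the 3 highest and 3 lowest by level, and those of the role lists. Some members that this rule names are not reported here. From each further list at most 4 called genes are named, those with the smallest adjusted p; Rrn3 and Mrto4 as the only ones that fell, Larp1, Mtor, Rpl15, Rpl28, Rpl37 and the Rpsa pseudogenes were added after their values were seen. Alternatives varied the filter, the guide block, the trend, the centring, the genes normalised, a pseudocount and the libraries included.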

Additional observations from a re-analysis of the deposited data

Results flagged for a closer look

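In groups of 4 libraries, the highest or lowest library was looked for whose gap to the nearest library, relative to the range of its group, exceeded Dixon's 95% critical value. This was done for 35 members and for 2 sums in each of 6 groups, 222 cases, of which 21 were met; chance alone gives about 1 in 20. Values are log2 CPM, and others means the other 3 libraries.

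Among untreated control libraries the following lay apart: Rpl12 at 9.45 (others 9.60 to 9.62) and Rps21 at 10.82 (others 10.63 to 10.64) in the first of guide 2, Rplp2 at 12.42 (others 12.47) in the first of guide 1 and Rps10 at 11.21 (others 11.09) in the second of guide 1. The ratio of large- to small-subunit members was 1.216 in the first of guide 2 (others 1.186 to 1.191). In untreated Ado KO cells Rpl13 read 10.43 (others 10.30 to 10.31) in the first of guide 2, Rpl29 read 6.97 (others 7.14 to 7.15) and Rplp1 12.58 (others 12.76) in the first of guide 1, and Rplp2 12.34 (others 12.47) in the second of guide 1.

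At TNF 1 h the second control library of guide 1 had Rps14 at 12.58 (others 13.32), Rpl15 at 9.11 (others 9.22 to 9.23) and a ratio of large- to small-subunit members of 1.289 (others 1.192 to 1.200). Rps14 is part of that ratio. The first control library of guide 1 had Rpl30 at 9.42 (others 9.08 to 9.11). The second library of Ado guide 2 had Rpl11 at 10.35 (others 10.51 to 10.53), Rpl13a at 10.45 (others 10.63 to 10.66) and Rpsa at 10.95 (others 11.12 to 11.15).

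At TNF 6 h Rps14 read 13.32 (others 12.76) and Rpl27a 11.53 (others 11.50) in the second control library of guide 2, and Rpl37 10.91 (others 10.78 to 10.80) in the first of guide 1. In Ado KO cells the second library of guide 1 had Rpl14 at 9.23 (others 9.43 to 9.47) and Rpsa at 10.78 (others 10.89 to 10.91). For Rps14, Rplp1, Rplp2 and Rpl27a equal values recur because these genes hold high places in the shared distribution.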

How the results depend on the processing

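Counts are of members past an adjusted p under 0.05 in limma.

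In control cells at 6 h, 27 were lower: 24 with no filter, 29 with a stricter filter, 24 with no guide block, 36 with guide populations as fixed terms, 21 with no variance trend, 24 after centring, 27 with a pseudocount, 11 with protein-coding genes normalised again, 15 without guide 1, 16 without guide 2 (which gave 1 higher) and 20 to 25 without 1 library (0 to 1 higher). Leaving out guide 1 or guide 2 leaves 12 libraries, and the cause of the other changes was not tested. The 24 genes left with no filter were all among the 27, as were 21 of 23 without the second untreated library of guide 2.

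With the replicate block (guide population and replicate number together), 26 were lower in control cells at 6 h, 0 rather than 1 in Ado KO cells at 6 h, and at TNF 1 h Ado KO cells had 3 higher and 3 lower than control. The numbers did not pair the samples, as same-numbered libraries deviated with correlations of -0.158 to 0.0543.

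In control cells at 1 h, 2 were lower: 1 with no filter, 4 with fixed terms, 0 with no trend and 0 to 2 without 1 library. Without guide 2 there were 3. Without guide 1 there were 2, neither of them Rpl12 or Rpsa. In Ado KO cells at 6 h, 1 was lower: 0 with no filter, no guide block, no trend or protein-coding genes alone by either scaling, 3 with a stricter filter, 5 with fixed terms, 6 without guide 1 and 0 to 2 without 1 library.

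For Ado KO against control, untreated, 1 was higher and 0 lower: 0 higher with no filter or no trend, 2 higher and 2 lower with fixed terms or without guide 1, 0 to 1 higher without 1 library. At 1 h, 1 was higher and 2 lower: 3 higher with a stricter filter, 3 higher with no guide block, 11 higher and 5 lower with fixed terms, 4 higher with protein-coding genes normalised again, 10 higher and 4 lower without guide 2, 1 lower with no filter or with protein-coding genes not normalised again, 0 lower with no trend or without guide 1, and 1 to 8 higher and 0 to 3 lower without 1 library. At 6 h, 2 were higher and 0 lower: 1 higher with no filter, no trend or protein-coding genes alone by either scaling, 8 higher and 1 lower with fixed terms, 4 higher with a pseudocount, 0 higher and 1 lower without guide 2, and 1 to 2 higher without 1 library. The interactions gave 0, and 0 to 1 at 1 h without 1 library.

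The relative change of the summed share at 6 h was -11.33% in control cells. It was -7.39% of protein-coding values, -8.9% from mean log2 levels and -12.44% to -10.48% without 1 library. The same 4 figures in Ado KO cells were -5.51%, -3.55%, -4.83% and -5.67% to -5.23%. TOP starts numbered 13, and 20 within 2 bases. No called member changed sign: of 432 refits with another setting 346 kept the call and 86 ended it, and of 288 without 1 library 205 kept it and 83 ended it.

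The lowest member, Rpl29, had a mean of 134.4 CPM, well above the filter on low values. Quantile normalisation limits the highest places, and shared sequence limits the 65 members with copies.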
